A study of Rattus norvegicus with 8 samples.

Results

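The genes described here are a set of 37 rat genes of DNA repair and telomere maintenance, chosen by name: sensors of double-strand breaks, recombination, Fanconi anaemia, end-joining, base excision, mismatch and nucleotide excision repair genes, shelterin, and telomerase with its H/ACA proteins. Of the listed names, 33 were carried by at least 1 non-control probe, of 36181 named genes on the array. They were measured in NR8383, a macrophage line obtained by lung lavage of a normal rat, which grows partly attached and partly floating. Cells at passage 200 (P200) were set against cells of the same line at passage 20 (P20), with no other treatment. Each group had 4 replicates, with 1 one-colour array for each. Both groups grew in the same serum-containing medium, as the labels describe it, and were seeded 48 h before harvest. The labels do not say whether the replicates came from separate cultures, so p-values measure only the spread between these samples, and 1 line gives no view of how other lines behave.

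DNA repair is divided by the kind of lesion. Breaks through both strands are sensed by protein complexes that activate checkpoint kinases, and are then rejoined by end joining or copied from an intact duplex by recombination. Damaged bases, mispaired bases and bulky adducts are each excised by their own enzymes. Chromosome ends are kept from being read as breaks by shelterin, and are lengthened by telomerase, whose RNA is held by the H/ACA proteins that also guide the modification of ribosomal RNA. Dividing cell lines pass through many rounds of replication that call on these systems.

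The only set member past the test was Dkc1, which encodes dyskerin, the pseudouridine synthase of H/ACA particles and a core part of telomerase. It fell at P200, and this was seen by 2 separate 60-base probes. Their sequences are given because the result rests on them, together with 1 probe each for Gar1 and Nhp2, partners of dyskerin in the same particle. They are written 5′ to 3′ as in the deposited files, in lower case with no part marked. Numbers in names are the base of the design transcript at which the probe starts.
Dkc1 probe at base 1335: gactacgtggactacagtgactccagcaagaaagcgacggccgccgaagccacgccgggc
Dkc1 probe at base 686: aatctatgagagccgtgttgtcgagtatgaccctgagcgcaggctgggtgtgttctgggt
Gar1 probe at base 511: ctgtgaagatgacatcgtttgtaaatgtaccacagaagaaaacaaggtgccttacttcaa
Nhp2 probe at base 190: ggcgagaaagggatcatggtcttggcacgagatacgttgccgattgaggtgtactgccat
The Dkc1 probes have no rn4 position in the files, so no genome coordinates are given for them. Dkc1 lies on chromosome X in the RefSeq table. The rn4 map positions that the files give to the other members are not checked against an annotation here.

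Signals are given as scaled log2 signal, the log2 of a probe's processed fluorescence minus the 75th percentile of its array, so that 0 is the level of that percentile. A change is the P200 mean minus the P20 mean, in log2 units. Levels of different probes cannot be set against each other on this scale. The test was limma over 15651 genes, with Benjamini-Hochberg adjustment and an adjusted p under 0.05 called, which called 11.5% of all genes, 5.84% as higher and 5.62% as lower at P200. In a culture sampled in bulk, fewer cells that express a gene and less of its RNA per cell cannot be told apart.

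Dkc1 stood at 1.18, 1.00, 0.88 and 0.97 on the P200 arrays, against 1.66, 1.73, 1.64 and 1.48 on the P20 arrays, at its brighter probe (base 1335). Every P200 array lay below every P20 array. The mean was 1.01 ± 0.13 at P200 and 1.63 ± 0.11 at P20 (SD, n = 4 each), a change of -0.62 (SE 0.08, 95% interval -0.81 to -0.43, limma adjusted p = 0.0017). This is a level 1.54-fold lower at P200. The other probe (base 686) read -0.07, -0.21, -0.20 and -0.07 at P200, against 0.26, 0.37, 0.32 and 0.18 at P20. Those groups did not overlap either, and the change was -0.42 (SE 0.07, interval -0.58 to -0.26, limma adjusted p over all probes 0.00551), 1.34-fold lower. The brighter probe is spotted 2 times on each array, and its 2 spots differed within an array by an SD of 0.022 to 0.078, which is less than the spread between arrays of either group. Dkc1 passed the test without any one of the 8 arrays, with changes between -0.68 and -0.58. Of 301 chromosome X genes tested, 31 were called lower at P200 and 15 higher. The lower share was 10.3%, against 5.62% of all genes. The part of chromosome X in the fall of Dkc1 was not tested.

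The 8 arrays occupied 2 rows of 1 slide, with 3 P200 arrays and 1 P20 array in the first row and 1 P200 array and 3 P20 arrays in the second. With slide row as a block, Dkc1 changed by -0.57 (limma adjusted p = 0.0113). It changed by -0.71 (adjusted p = 0.105) within the first row and by -0.44 (adjusted p = 0.213) within the second, fits that rest on 1 array of a group and so assume that it varies like the others. Scaling each array to its median instead gave -0.66, with an adjusted p of 0.215, and called 656 genes in place of 1793. The direction was the same in each of these fits.

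Other telomerase and H/ACA members did not pass the test. Gar1, a structural protein of the particle, was -1.24, -1.27, -1.22 and -1.28 at P200, against -1.35, -1.32, -1.39 and -1.42 at P20. The groups did not overlap at this probe (base 511), and the change was 0.11 (interval -0.01 to 0.24, limma adjusted p = 0.246), with 0.21 (adjusted p = 0.149) at its second probe. Nhp2, which binds the guide RNA, lay between 2.48 and 2.81 at P200 and between 2.43 and 2.67 at P20, a change of 0.10 (interval -0.10 to 0.31). Nop10, the small scaffold of dyskerin, lay between 3.15 and 3.39 at P200 and between 3.20 and 3.29 at P20, a change of 0.04 (interval -0.12 to 0.20). The groups overlap for Nhp2, Nop10 and the second Gar1 probe, and do not overlap for either Dkc1 probe or the first Gar1 probe. The difference between Dkc1 and its partners was not tested.

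**Figure D1:**
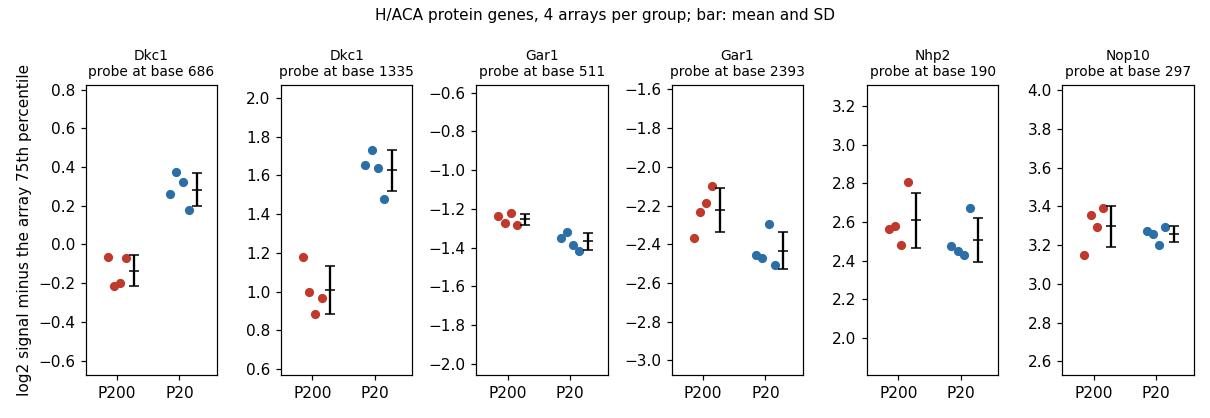
Scaled log2 signal (y axis) of the probes of Dkc1, Gar1, Nhp2 and Nop10, 1 panel per probe, with the 4 P200 arrays left of the 4 P20 arrays and the group mean and SD drawn beside the points. Both Dkc1 probes separate the groups with P200 lower, by 0.62 and 0.42, while Nhp2 and Nop10 overlap.

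Tert, the reverse transcriptase of telomerase, did not pass the filter on dim probes and was not tested. It has 3 probes, and 2 of them were not well above background on any array. The remaining one was well above background on 3 P200 and 3 P20 arrays. Its values were -5.16, -5.55, -6.01 and -5.40 at P200, against -6.51, -5.34, -5.25 and -5.44 at P20, and the groups overlap near the dim end of the scale. With no filter its change was 0.10 (SE 0.32, limma adjusted p = 0.907), and it was 0.26 without P200 replicate 3 and -0.19 without P20 replicate 1. The telomerase RNA is not among the listed genes.

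A list joined genes of the box C/D particle, the other class of small nucleolar particle, with other nucleolar genes. It gave 1 call among 6 tested, beside 11.5% of all genes. That was Snu13, at 3.34, 3.27, 3.25 and 3.42 in P200 cells, against 2.90, 3.02, 2.94 and 3.03 in P20 cells, which rose by 0.35 (SE 0.06, limma adjusted p = 0.00885).

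Across the set, 31 members were tested, and 1 passed: 0 rose, 1 fell and 30 did not pass. That is 1 of 31, beside 11.5% of all genes tested. At an unadjusted p under 0.05 there were 6 members (Dkc1, Xpc, Atm, Parp1, Xrcc1 and Lig4), beside 23.7% of all genes. The changes ran from -0.62 to 0.28, with 17 positive and 14 negative, and their median was 0.03, against 0.0036 over all genes. For 29 of 31 members the 95% interval of the change lay inside 2-fold either way, beside 92.8% of all genes; the exceptions were Rad50 and Ddb2. A missed threshold does not show that a member kept its level, and the interval gives the sizes that the arrays leave possible. The groups did not overlap for 7 members, beside 19.4% of all genes. P200 lay above P20 for 5 (Atm, Xrcc1, Parp1, Xpc and Gar1), beside 9.66% of all genes, and below it for 2 (Ddb2 and Dkc1), beside 9.78%.

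**Figure D2:**
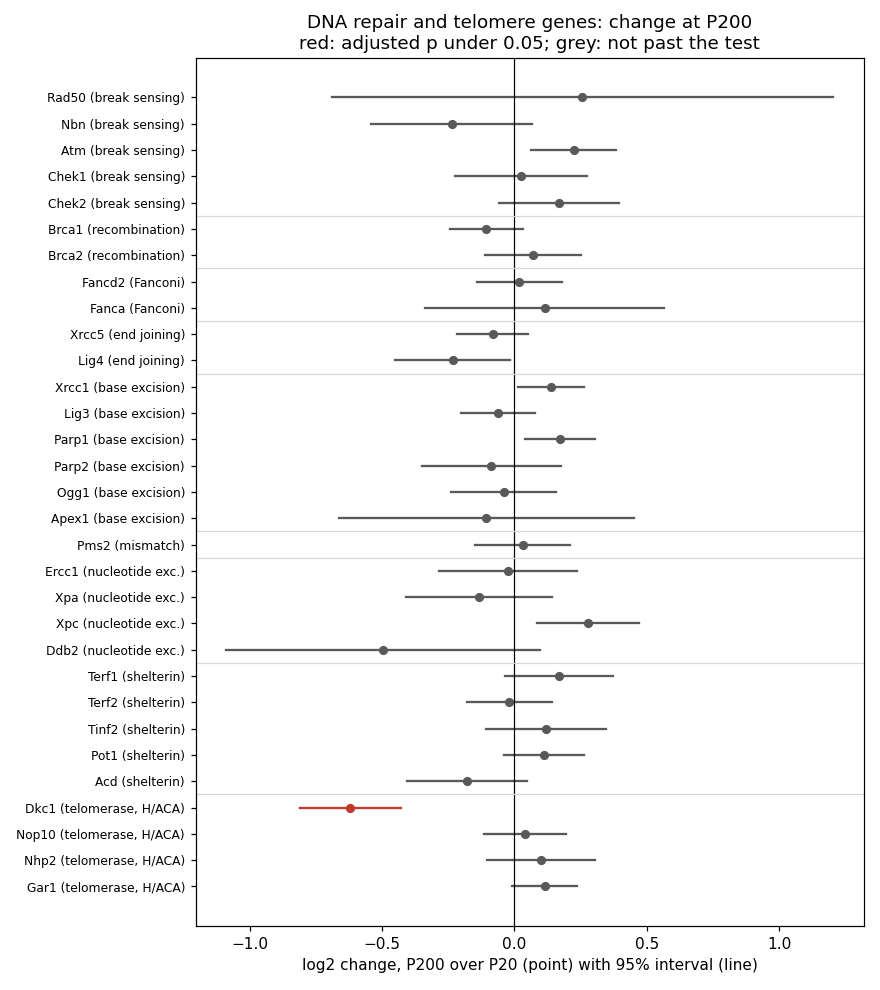
Change of each of the 31 members tested (x axis, log2 of P200 over P20) with its 95% interval, grouped by repair role down the page. The single member past the test, Dkc1 at -0.62, is drawn in red, and Rad50 and Ddb2 have the intervals that extend past 2-fold.

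Among sensors of double-strand breaks and checkpoint kinases, 5 of 6 listed genes were tested and 0 passed. Atm, the kinase that breaks activate, was -1.73, -1.71, -1.70 and -1.80 at P200, against -1.82, -1.997, -2.08 and -1.93 at P20. Every P200 array was above every P20 array, but the change was 0.22 (SE 0.07, interval 0.06 to 0.39, limma adjusted p = 0.084). Of 19 other settings, Atm passed in 1, with array weights (limma adjusted p = 0.0318). A dimmer second probe changed by -0.12 (adjusted p = 0.748). Rad50, a structural part of the complex that binds broken ends, was -2.55, -4.22, -4.27 and -4.83 at P200, against -4.23, -4.17, -4.27 and -4.23 at P20. P200 replicate 1 stands far above the other arrays and P200 replicate 4 below them. The change of 0.26 (SE 0.42, limma adjusted p = 0.773) turned to -0.22 without P200 replicate 1 and was 0.73 (adjusted p = 0.359) with slide row as a block. On that array the pixels of its single spot had an SD of 29.9% of their mean, against 16.1% to 26.1% on the other arrays; the part of this in the value was not tested.

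Nbn, another part of the end-binding complex, changed by -0.24 (limma adjusted p = 0.347), with P200 arrays between -1.52 and -0.86 and P20 arrays between -1.01 and -0.82. Chek1 and Chek2, the kinases downstream of Atr and Atm, changed by 0.03 and 0.17, and their P200 arrays overlap their P20 arrays. At a second Chek2 probe the groups also overlap, and the change was 0.23 (limma adjusted p over all probes 0.313). Atr, the kinase for stalled forks, was well above background on 0 P200 arrays and 1 P20 array and did not pass the filter; with no filter its change was -0.47 (SE 0.44, limma adjusted p = 0.823).

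For homologous recombination, Brca1 and Brca2 were tested and 0 passed. Brca1, which promotes recombination at resected ends, was -1.06, -1.05, -0.94 and -0.998 at P200, against -0.94, -0.86, -0.97 and -0.84 at P20. The groups overlap at 1 P200 array, and the change was -0.11 (SE 0.06, interval -0.24 to 0.03, limma adjusted p = 0.349). A dimmer Brca1 probe, well above background on 3 P200 and 4 P20 arrays, changed by -0.26 (limma adjusted p over all probes 0.32). Brca2, which loads the recombinase, changed by 0.07 (interval -0.11 to 0.25), and by -0.11 at its other probe. Blm had no probe under its listed name and was not analysed here. The helicase Wrn appears only under an older symbol, so it stood outside the naming rule and outside the counts. Its values were -2.06, -2.14, -2.01 and -2.06 at P200, against -1.89, -1.96, -1.89 and -1.94 at P20. P200 lay below P20 throughout at this brighter probe, but the change of -0.15 had a limma adjusted p of 0.142. At its second probe the groups overlap, and the change was -0.27 (limma adjusted p over all probes 0.18).

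The Fanconi anaemia pathway, which unhooks crosslinked strands, had 2 members tested and 0 past the test. Fancd2, its ubiquitinated central protein, changed by 0.02 (interval -0.14 to 0.18). Fanca, part of the core ligase complex, was -2.44, -2.59, -2.57 and -2.37 at P200, against -2.48, -2.52, -3.24 and -2.19 at P20. P20 replicate 3 lies below every other array, and the change of 0.11 (SE 0.20, limma adjusted p = 0.79) turned to -0.10 without it. Another 2 Fanca probes were above background on 0 arrays.

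End joining had Xrcc5 and Lig4 tested and 0 past the test. Xrcc5, the larger Ku subunit that caps broken ends, changed by -0.08 (interval -0.22 to 0.05), and by -0.01 at its second probe. Lig4, the ligase that seals the break, was -4.12, -4.35, -4.06 and -4.23 at P200, against -3.88, -3.80, -4.14 and -3.998 at P20. The groups overlap, with 2 of 4 P200 arrays below every P20 array, and the change was -0.23 (SE 0.10, interval -0.45 to -0.01, unadjusted p = 0.0392, limma adjusted p = 0.18). Prkdc had no probe under its listed name and was not analysed here.

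Base excision and single-strand break repair had all 6 members tested and 0 past the test, with 2 changes positive and 4 negative. For Parp1 and Xrcc1, which act together at nicks, every P200 array was above every P20 array, as for 9.66% of all genes. Parp1, the poly(ADP-ribose) polymerase that senses nicks, was 2.58, 2.44, 2.45 and 2.46 at P200, against 2.30, 2.35, 2.27 and 2.32 at P20. The change was 0.17 (SE 0.06, interval 0.04 to 0.30, limma adjusted p = 0.104), from 10 spots per array whose SD was 0.076 to 0.143. Xrcc1, the scaffold that brings in ligase and polymerase, was 1.95, 1.89, 1.90 and 2.01 at P200, against 1.78, 1.78, 1.81 and 1.82 at P20. The change was 0.14 (SE 0.05, interval 0.01 to 0.26, limma adjusted p = 0.159). These differences exceed the spread within each group but not the test over all genes. Neither passed it in any of 19 other settings.

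Lig3, which seals nicks with Xrcc1, changed by -0.06, and its 4 probes by -0.23 to 0.06. Parp2, a second nick sensor, changed by -0.09 (interval -0.35 to 0.18). Ogg1, the glycosylase for oxidised guanine, changed by -0.04 (interval -0.24 to 0.16). Apex1, the endonuclease that cuts at abasic sites, was 2.83, 1.66, 2.72 and 2.85 at P200, against 2.60, 2.63, 2.57 and 2.68 at P20. P200 replicate 2 lies far below the rest, and the other 3 P200 arrays lie above all 4 P20 arrays. The change over all arrays was -0.11 (limma adjusted p = 0.845), and the pixels of its spot on P200 replicate 2 had an SD of 21.8% of their mean, against 9.9% to 12.8% elsewhere; the part of this in the value was not tested.

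Mismatch repair was measured by Pms2, a partner in the nicking heterodimer. It read -1.79, -1.98, -1.70 and -1.86 at P200, against -1.93, -1.76, -1.94 and -1.82 at P20. The groups overlap fully, and the change was 0.03 (SE 0.08, interval -0.15 to 0.21, limma adjusted p = 0.857). Msh6 had no probe under its listed name and was not analysed here.

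Nucleotide excision repair had all 4 members tested and 0 past the test, with its damage sensors Xpc and Ddb2 at opposite ends. Xpc, which finds distorted DNA, was -3.07, -3.23, -2.95 and -2.96 at P200, against -3.48, -3.28, -3.28 and -3.28 at P20. P200 lay above P20 on every array, and the change of 0.28 (SE 0.08, interval 0.09 to 0.47) had a limma adjusted p of 0.0742. It passed under quantile normalization (adjusted p = 0.0448), with array weights (0.0385) and without P200 replicate 2 (0.34, adjusted p = 0.0375). Ddb2, which hands ultraviolet damage to Xpc, was -2.99, -1.69, -1.90 and -1.78 at P200, against -1.50, -1.62, -1.63 and -1.62 at P20. P200 lay below P20 on every array, with P200 replicate 1 far below. The change was -0.50 (SE 0.26, interval -1.09 to 0.10, limma adjusted p = 0.305), -0.20 (adjusted p = 0.163) without P200 replicate 1 and -0.83 (adjusted p = 0.0552) with slide row as a block. Ercc1, part of the nuclease that cuts beside the lesion, changed by -0.02, and Xpa, which verifies the damage, by -0.13 (interval -0.41 to 0.14).

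**Figure D3:**
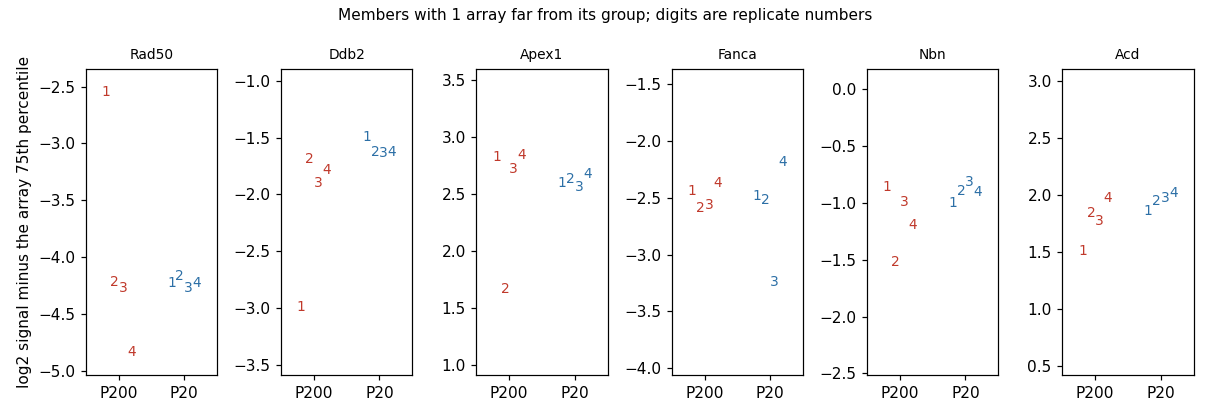
Scaled log2 signal (y axis) of Rad50, Ddb2, Apex1, Fanca, Nbn and Acd on each array, with P200 left of P20 and each point drawn as its replicate number. P200 replicate 1 departs for Rad50, Ddb2 and Acd, P200 replicate 2 for Apex1 and P20 replicate 3 for Fanca.

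Shelterin had all 5 members tested and 0 past the test, with changes between -0.18 and 0.17. Acd, which encodes Tpp1 and recruits telomerase, was 1.51, 1.84, 1.77 and 1.97 at P200, against 1.86, 1.95, 1.98 and 2.02 at P20. The groups overlap at P200 replicate 4, and the change was -0.18 (SE 0.10, interval -0.41 to 0.05, limma adjusted p = 0.338), or -0.09 without P200 replicate 1. The 2 spots of the Acd probe on that array read 0.69 and 2.03, an SD of 0.946, against 0.0087 to 0.062 on the other arrays; the part of this in the value was not tested. Terf1 and Terf2, which bind the double-stranded telomeric repeat, changed by 0.17 (interval -0.03 to 0.37) and -0.02 (interval -0.18 to 0.14). The dimmer Terf2 probes changed by 0.08 and 0.11. Terf1 passed with array weights. Tinf2, which links them, changed by 0.12 (interval -0.11 to 0.35). Pot1, which covers the single-stranded overhang, changed by 0.11 (interval -0.04 to 0.26), and by -0.02 at a second probe.

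**Figure D4:**
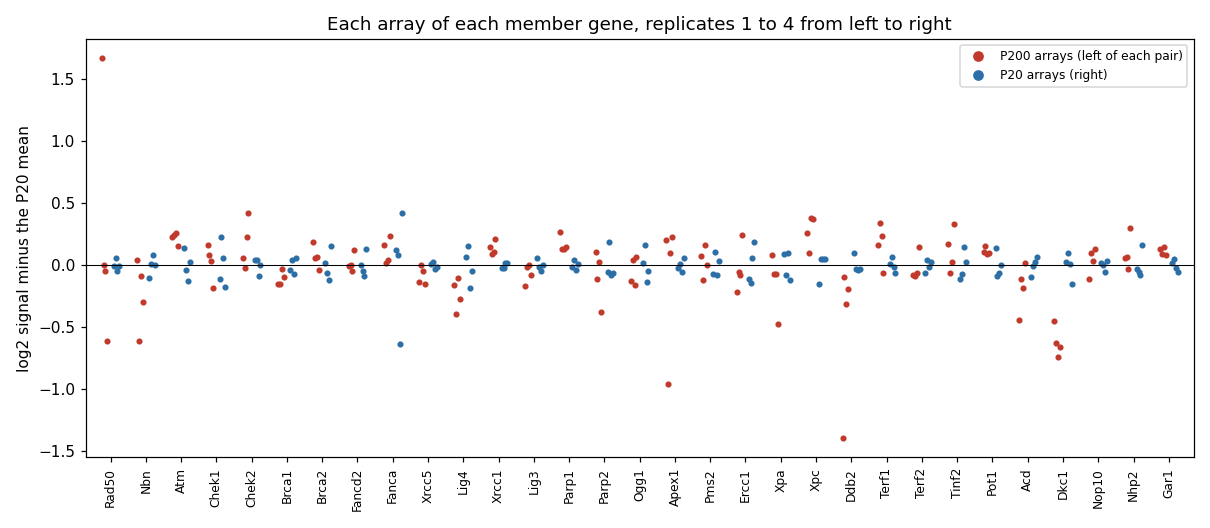
Signal of each tested member on each array minus its P20 mean (log2), with P200 arrays in red left of P20 arrays in blue. Dkc1 lies below its P20 mean on all 4 P200 arrays, and the single points farthest from 0 are 1 P200 array each of Rad50, Ddb2 and Apex1.

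Members differed between arrays by a median SD of 0.125 at P200 and 0.0868 at P20, against 0.144 at P200 and 0.108 at P20 over all genes. Points more than 0.5 from the median of their group were few. P200 replicate 1 had 2 (Rad50 and Ddb2), P200 replicates 2 and 4 had 1 each, P20 replicate 3 had 1, and the other 4 arrays had 0. Of the 10 tested members with more than 1 tested probe, Dkc1 is the one for which any probe passed over all 19458 probes, of which 10.8% were called.

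The same pathways were also followed through 95 other genes on the array, of which 90 were tested: 4 rose, 2 fell and 84 did not pass. That is 6 of 90, beside 11.5% of all genes, and their median change was 0.04. Base excision and single-strand break repair held 5 of the 6 calls, 3 higher and 2 lower among 17 tested, and end joining held the remaining one. No call was made among the other genes of break sensing (10 tested), recombination (15), the Fanconi pathway (9), mismatch repair (5), nucleotide excision repair (11), telomere protection (8) or the telomerase group (8) by limma. At an unadjusted p under 0.05 there were 19 of the 90, beside 23.7% of all genes. These were 6 for base excision, 5 for recombination, and 2 each for end joining, the Fanconi pathway and nucleotide excision repair. Telomere protection and the telomerase group had 1 each, and break sensing and mismatch repair had 0.

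Xrcc6, the smaller Ku subunit, was 2.11, 2.08, 2.09 and 2.17 at P200, against 1.77, 1.77, 1.82 and 1.81 at P20. It rose by 0.32 (SE 0.05, limma adjusted p = 0.00489), while its partner Xrcc5 changed by -0.08. Smug1, a uracil glycosylase, was -0.33, -0.56, -0.61 and -0.55 at P200, against -1.03, -0.95, -0.96 and -0.91 at P20. It rose by 0.45 (SE 0.08, adjusted p = 0.00541). The groups are far apart for both, and both passed without any one array. Neither passed with no filter on dim probes (adjusted p = 0.101 for Xrcc6 and 0.0681 for Smug1), and Smug1 did not when its probes were averaged (0.32, adjusted p = 0.0635). Their probes lie on chromosome 7 in rn4, Xrcc6 at 120422863 to 120422922 and Smug1 at 142062085 to 142062144. On that chromosome 27.9% of 936 genes were called higher at P200, against 5.84% of all genes, and it carries 0 of the 31 members tested. The part of chromosome 7 in these rises was not tested.

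Ung, the main uracil glycosylase, was -1.67, -1.54, -1.49 and -1.58 at P200, against -2.01, -1.82, -1.83 and -1.80 at P20, and rose by 0.29 (SE 0.07, limma adjusted p = 0.0323). Mbd4, a glycosylase for mismatched thymine at methylated sites, was -2.56, -2.69, -2.65 and -2.71 at P200, against -3.04, -2.89, -2.93 and -2.81 at P20. It rose by 0.27 (SE 0.07, adjusted p = 0.0393). Parp3, a polymerase relative of Parp1, was -1.08, -1.09, -0.98 and -0.94 at P200, against -0.85, -0.75, -0.70 and -0.69 at P20, and fell by 0.28 (SE 0.07, adjusted p = 0.0263). Tdp1, which removes protein adducts from DNA ends, was -1.62, -1.58, -1.64 and -1.51 at P200, against -1.39, -1.37, -1.30 and -1.30 at P20. It fell by 0.25 (SE 0.06, adjusted p = 0.0279). The groups do not overlap for any of these, but the calls were close to the threshold: leaving out 1 array kept the call in 1 of 8 cases for Ung and for Tdp1, and in 2 of 8 for Mbd4 and for Parp3. With scaling to the array median, 0 of the 6 passed by limma.

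Markers of the cell type and of growth were read on the same arrays. Of 12 macrophage markers on the array, 10 were well above background on all 8 arrays, while Adgre1 was on none and Marco was on 1 P200 array. Of 10 tested, 0 rose and 2 fell, beside 5.84% and 5.62% of all genes. An unadjusted p under 0.05 was reached by 5, beside 23.7% of all genes, and the median change was -0.12. Cd14 and Siglec1 fell at P200, by 0.91 (limma adjusted p = 0.00179) and 0.56 (adjusted p = 0.0362). The largest change in the other direction was Mrc1, at 0.51 (adjusted p = 0.105). Of 16 markers of other cell types, 5 were well above background on all 8 arrays (Col1a2, Dcn, Pecam1, Cdh5 and Vwf) and 7 on none, and 0 of 5 tested passed, with 1 at an unadjusted p under 0.05. Of 12 proliferation markers, limma called 0, with 1 (Mcm2) at an unadjusted p under 0.05, and their median change was 0.07.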

How the data were processed

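RNA from 4 P200 and 4 P20 samples was measured on one-colour (Cy3) Agilent rat arrays. The deposited scanner files hold spot intensity on a linear scale, which the authors read with Agilent Feature Extraction 11.0.1.1 (background subtracted within each array, none between arrays), per the submitters' processing notes and per the file headers. The deposited series matrix equals the spot median intensity in 100% of values (column medians 63 to 82.5). Its direction and scale are therefore known and it has no centring, but its P200 columns 1 to 4 hold the scanner files numbered 2, 3, 4 and 1. Replicate numbers here are those of the scanner files.

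Of 62976 spots, 4259 controls were left out. Outlier spots were dropped, spots of a probe averaged, and 84 of 45598 probes without a usable spot on some array removed. Values are log2 processed signal, from which the 75th percentile within that array was subtracted. Between 51.0% and 54.5% of spots were well above background, 0 were saturated, and the percentile ran from 979 to 1869. Probes well above background on all 4 arrays of at least 1 group entered (19458), and a gene was represented by its brightest probe (15651 genes). Names came from RefSeq (GRCr8) for 21109 probes by accession, 6684 by symbol and 424 by synonym, and from the files for 17381. Positions are on rn4, per the file headers.

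Groups were compared with limma 3.58.1 in R 4.3.3 (lmFit, eBayes, two-sided, no covariate), with Benjamini-Hochberg adjustment over all genes. The same fit was also run on simulated data that took their gene means and spread from these arrays. Alternatives changed the scaling, background correction, filter, probe rule, blocks, array weights and arrays included. Members and lists were chosen with earlier results of these data known. Values on each array are given for members past the test, those with an unadjusted p under 0.05, and the largest change of each role, with Gar1, Tert, Apex1, Wrn and Snu13 added after their values were seen. Other pathway genes past the test are named. The planned comparison of genes near Dkc1 is not reported here. Precision is limited by having 4 arrays per group.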

Additional observations from a re-analysis of the deposited data

Results flagged for a closer look

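In 7 of 62 groups of 4 arrays, the highest or lowest value of a member stood apart from the other 3 by Dixon's test (95% level), which chance does in about 1 in 20 groups. The high values were Parp1 at 2.58 on P200 replicate 1, Parp2 at -0.94 on P20 replicate 2, Ddb2 at -1.50 on P20 replicate 1 and Terf2 at -1.02 on P200 replicate 4. The low values were Apex1 at 1.66 on P200 replicate 2, Ddb2 at -2.99 on P200 replicate 1 and Xpc at -3.48 on P20 replicate 1. All are scaled log2 signals. The test sets a gap against the range of the 4 values, so a small gap can be flagged. The gap was 0.12 for Parp1 and 1.05 for Apex1. The share of flags over all genes is not given here, so the count is not read as particular to the members.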

How the results depend on the processing

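Of the 19 other settings, Dkc1 kept its direction in all and its call in 16. It lost the call with array median scaling (-0.66), within slide row 1 (-0.71) and within slide row 2 (-0.44). The fits within slide rows were chosen after seeing the data. The members higher at P200 and past the test numbered 1 with quantile normalization, 3 with array weights, 1 within slide row 2 and 0 to 1 without single replicates, and the members lower numbered 0 with array median scaling and within slide row 1, and 1 without any single replicate. Within slide row 2, the calls were Rad50 (1.67) and Ddb2 (-1.36), each with 1 P200 array, replicate 1. Of the other pathway genes, 0 were higher with array median scaling, without a filter on dim probes and within either slide row, 8 with array weights and 2 to 4 without single replicates. Of the same genes, 0 were lower with array median scaling, without a filter, with slide row as a block and within slide row 1, 1 with the replicate block, 5 with array weights and 0 to 3 without single replicates. Over all genes, 656 were called with array median scaling (289 higher and 367 lower), 800 without a filter, 344 within slide row 1, 579 within slide row 2 and 2504 with array weights, against 1793 (914 higher and 879 lower). The direction turned for Pms2 with array median scaling (-0.0093) and without P200 replicate 3 (-0.012; -0.012 to 0.0804 over single replicates left out), for Rad50 within slide row 1 (-0.21) and without P200 replicate 1 (-0.22; -0.22 to 0.54), for Fanca within slide row 1 (-0.028) and without P20 replicate 3 (-0.10; -0.10 to 0.25), and for Acd within slide row 1 (0.00038). The causes were not tested. Same-numbered arrays correlated in their deviations by 0.02, 0.14, -0.0032 and 0.28, so the numbers were not taken to pair samples; with the replicate block, Dkc1 changed by -0.62 (limma adjusted p = 0.00822) and 1495 genes were called. Dim signal kept Tert and Atr out of the counts; with no filter both were tested and neither passed. With slide row as a block, Pms2 changed by 0.07.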
